A study of Mus musculus with 16 samples.

Results

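U2-length snRNA intervals are the small nuclear RNA genes of 180 to 200 bases in the list of small RNA intervals counted in mouse bone marrow. They were taken as the intervals whose chromosome, start and end matched a GENCODE M21 gene of type snRNA of that length on GRCm38. Rnu11 and Rnu12, which belong to the minor spliceosome, were left out by name. The rule found 24 of the 1885 listed intervals, out of 375 listed snRNA intervals and 38 annotated snRNA genes of that length. The nearest listed snRNA intervals below the limit were 177 bases long, and 0 exceeded 200 bases by 20 or less. The rule used annotation and no measured value.

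U2 snRNA is the RNA core of the U2 small nuclear ribonucleoprotein, a subunit of the major spliceosome. It base pairs with the branch point of the intron through a short sequence near its 5′ end, which leaves the branch adenosine unpaired so that it can attack the 5′ splice site. A ring of Sm proteins assembles on a uridine-rich site further along the RNA. Vertebrate genomes hold several copies of the U2 gene, some in tandem or local clusters, and many more U2-derived pseudogenes. All nucleated blood cells need U2 to remove introns.

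The study profiled small non-coding RNA in wild-type mice, with no mutation or treatment in any group. The 8 populations were sorted from bone marrow by flow cytometry, with 2 libraries each and 16 in all. The progenitors are CLP, CMP, GMP and MEP, the usual names of the common lymphoid, common myeloid, granulocyte-monocyte and megakaryocyte-erythrocyte progenitors. The mature cells are B, T, Myeloid (Myloid in the labels) and Erythroid, also from bone marrow. The labels list the antibodies of the sort as a pool and not the gate of each population, and the age and strain are not given in the sources used here. The labels do not state whether separate mice gave the 2 libraries of a population. The p-values therefore rest on a spread between libraries that may be purely technical. In sorted bulk samples, a change in the mix of cells within a gate and a change in RNA per cell cannot be told apart.

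The 24 intervals fell into 3 groups by sequence, and 9 distinct sequences account for 13 of them. Gm23849, Gm24950 and Gm23971 have the same 191 bases as Rnu2-10, the named U2 gene, and lie with it on chromosome 11. Another 9 intervals of 191 bases align to Rnu2-10 without gaps and carry 1 to 9 substitutions. The sequences below, read from the GENCODE M21 transcripts, are shown because the values of the 2 groups differed. In Rnu2-10 the capitals mark the branch recognition motif GTAGTA, at positions 33 to 38, and the Sm motif ATTTTTGG, at positions 99 to 106. In the others they mark the bases that differ from Rnu2-10. Gm23444 has the sequence of Gm23472.

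Rnu2-10: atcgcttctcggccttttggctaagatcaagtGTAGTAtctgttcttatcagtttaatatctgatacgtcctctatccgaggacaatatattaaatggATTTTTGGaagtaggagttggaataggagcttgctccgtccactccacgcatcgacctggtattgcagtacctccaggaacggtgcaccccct

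Gm23472: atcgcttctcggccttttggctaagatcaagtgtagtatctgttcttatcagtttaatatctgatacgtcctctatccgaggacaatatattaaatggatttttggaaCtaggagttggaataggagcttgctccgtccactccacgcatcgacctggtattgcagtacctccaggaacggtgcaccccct

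Gm26316: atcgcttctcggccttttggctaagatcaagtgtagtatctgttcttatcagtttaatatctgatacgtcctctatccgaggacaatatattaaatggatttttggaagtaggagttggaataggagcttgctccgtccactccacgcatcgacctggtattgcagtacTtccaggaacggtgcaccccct

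Gm24497: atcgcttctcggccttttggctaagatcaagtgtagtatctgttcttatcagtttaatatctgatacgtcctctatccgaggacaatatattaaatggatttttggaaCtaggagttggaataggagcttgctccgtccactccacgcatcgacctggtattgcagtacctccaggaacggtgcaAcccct

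Gm25813: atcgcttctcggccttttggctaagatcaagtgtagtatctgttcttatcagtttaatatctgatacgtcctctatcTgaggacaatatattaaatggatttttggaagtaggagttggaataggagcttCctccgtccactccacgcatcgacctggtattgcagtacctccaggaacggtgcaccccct

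Gm25939: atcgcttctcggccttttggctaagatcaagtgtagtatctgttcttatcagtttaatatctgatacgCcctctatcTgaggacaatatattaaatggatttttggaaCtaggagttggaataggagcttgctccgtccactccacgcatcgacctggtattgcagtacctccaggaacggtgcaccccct

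Gm25360: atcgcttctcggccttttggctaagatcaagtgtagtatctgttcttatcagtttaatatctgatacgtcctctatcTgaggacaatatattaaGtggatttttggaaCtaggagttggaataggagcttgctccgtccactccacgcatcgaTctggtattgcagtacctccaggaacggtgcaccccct

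Gm25202: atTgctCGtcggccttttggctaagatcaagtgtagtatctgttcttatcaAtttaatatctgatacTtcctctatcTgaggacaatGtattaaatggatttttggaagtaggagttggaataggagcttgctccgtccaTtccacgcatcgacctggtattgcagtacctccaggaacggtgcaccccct

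Gm22973: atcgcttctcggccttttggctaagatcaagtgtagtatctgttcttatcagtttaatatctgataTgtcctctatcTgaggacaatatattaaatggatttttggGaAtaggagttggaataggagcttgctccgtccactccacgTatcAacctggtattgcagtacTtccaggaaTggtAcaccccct

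Positions are counted from 1 at the 5′ end of Rnu2-10, with its base first and the base of the copy last. All 13 copies kept both motifs. G109C, 3 bases after the Sm motif, was carried by 5 copies, Gm23472, Gm23444, Gm24497, Gm25939 and Gm25360. C78T was also carried by 5, namely Gm25360, Gm25939, Gm25813, Gm22973 and Gm25202. Gm26316 differed by C170T alone, which Gm22973 shared. Gm24497 added C186A to G109C, near the 3′ end. Gm25813 had C78T and G131C. Gm25939 had T69C, C78T and G109C. Gm25202 had 8 substitutions, 3 of them (C3T, T7C and C8G) within the first 8 bases. Gm22973 had 9, among them G109A at the position where 5 other copies have G109C. Over all members and on the annotated strand, GTAGTA began at position 33 in 16 of 24 and ATTTTTGG was found in 16. Among 372 GENCODE transcripts of 180 to 200 bases that are not snRNA, 2.15% held GTAGTA and 0.806% held ATTTTTGG on the annotated strand. On either strand these shares were 5.38% and 0.806%.

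The copies lie in a few places on GRCm38. Rnu2-10 spans chr11:101658238-101658428 on the plus strand, and Gm23849 (chr11:101627366-101627556), Gm24950 (chr11:101641748-101641938) and Gm23971 (chr11:101645740-101645930, minus strand) lie beside it. Gm26316 (chr11:101604850-101605040), with 1 substitution, is at the edge of the same stretch. A second local group is on chromosome 1, with Gm25360 (chr1:72226240-72226430), Gm23472 (chr1:72236946-72237136), Gm24497 (chr1:72244213-72244403) and Gm25939 (chr1:72255008-72255198). The last 3 of these lie in introns of the long non-coding RNA gene D230017M19Rik on its strand, and Gm23849 lies in an intron of Rdm1 on its strand. Gm23444 (chr11:83271498-83271688), Gm25813 (chr8:52336915-52337105), Gm22973 (chr12:59040335-59040525) and Gm25202 (chrX:14315401-14315591) stand alone. The other close copies were intergenic in this annotation.

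The remaining 11 intervals were divergent, with 45% to 90.1% identity to Rnu2-10, and not all were U2-like. Gm26361 and Gm26146 were closer to the U1 gene Rnu1b1 (63.0% and 68.4% identity) than to Rnu2-10 (45.2% and 47.3%). Gm22122 matched neither, with 47.1% and 45% identity, and had its best match, 94.0% over 67 bases, with the shorter snRNA Gm24459. The label therefore holds for the 13 close copies, and the length class as a whole also takes in intervals that resemble other snRNAs. The close copies held 99.6% to 99.9% of the counts of the class in every library.

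Reads shared among copies limit what a single interval can show. A read that spans no differing base fits several copies equally well, and how such reads were placed is not given in the sources used here. Within a library, the highest of the 4 intervals with the sequence of Rnu2-10 exceeded the lowest by 1.03 to 1.47 times (median 1.11). Gm23472 and Gm23444, which also share 1 sequence, differed by 1.09 to 1.31 times in all 16 libraries. A library listed even numbers for 89.0% to 93.2% of its intervals, and odd counts made up 9.17% of all listed values. Among the close copies odd counts were 38.9% of the values, while the sum of the 13 was even in 11 of 16 libraries. The values of each copy are therefore uncertain as levels of that gene. Differences between the sequences as groups are given beside them. Reads that span no differing base limit these as well, since they fit copies of both groups.

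Total counts per library ranged from 8197458 to 41799906, and the 24 intervals took 0.0884% to 0.266% of them (median 0.195%) and 41.0% to 59.0% of all snRNA counts. Levels are given as CPM, the count relative to the library size after scaling by the trimmed mean of M values (TMM). The 13 close copies have equal length, so no scaling by length was needed between them. Comparison of their levels is still limited by the unknown placement of shared reads. In GMP, MEP and Erythroid, neither library had its own partner as the nearest library by Spearman correlation over the tested intervals, whereas in the other 5 populations both did. The nearest was a CLP library for both GMP libraries, both MEP libraries and Erythroid library 1. Among microRNA markers, Mir150 was highest in T (272 ± 18.2 CPM, SD, n = 2), Mir223 in Myeloid (921 ± 36.3 CPM, SD, n = 2) and Mir451 in MEP (152 ± 39.7 CPM, SD, n = 2) and Erythroid (147 ± 46.9 CPM, SD, n = 2). Mir451 also stood at 127 ± 6.47 CPM in CLP, within the range of Erythroid, against 12.1 ± 0.351 CPM in B and 32.7 ± 5.50 CPM in T (SD, n = 2). The 4 Mir181 markers of T cells and lymphoid progenitors were not raised in CLP. They summed to 62.2 and 77.1 CPM there, 135 and 146 CPM in CMP, 133 and 137 CPM in B and 216 and 242 CPM in T.

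Of the 24 intervals, 17 passed the low-count filter, namely the 13 close copies and the divergent Gm25475, Gm22423, Gm24763 and Gm25259. The edgeR quasi-likelihood test called 16 of these as differing among the 8 populations at an adjusted p under 0.05, against 61.1% of all 749 intervals tested, and Gm25259 was the exception (adjusted p = 0.503). Gm22423 passed the filter through its progenitor counts (86 in all, against 8 in mature cells), so its calls in comparisons of progenitors are descriptions only. Gm24763 had 2 to 8 counts in each B and T library, under the minimum of 10, and passed through other populations. Its calls in comparisons with lymphocytes are likewise descriptions only.

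Rnu2-10 was highest in GMP, at 359 and 329 CPM, and lowest in CMP, at 161 and 167 CPM. It measured 303 and 293 CPM in Myeloid, 296 and 290 CPM in MEP, 282 and 258 CPM in Erythroid, 249 and 231 CPM in CLP, 224 and 203 CPM in B and 178 and 187 CPM in T. In that order of levels, Myeloid and MEP were the only neighbours whose libraries overlapped. Gm23849, Gm24950 and Gm23971 were also highest in GMP, at 354 ± 25.1, 362 ± 31.1 and 351 ± 21.8 CPM (SD, n = 2). Gm23849 and Gm24950 were lowest in CMP, at 158 ± 6.21 and 165 ± 0.947 CPM (SD, n = 2). Gm23971 was lowest in T, at 194 ± 3.30 CPM, and stood at 227 ± 2.01 CPM in CMP (SD, n = 2). Relative to the mean of the other 3 copies of its sequence, Gm23971 ran from 0.987 to 1.41 times, and its highest values were those of CMP.

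The substituted copies spanned a wide range of levels. The mean over 16 libraries was 197 CPM for Gm23472, 182 CPM for Gm25939 and 166 CPM for Gm23444. Rnu2-10, 1 of 4 intervals with its sequence, had 251 CPM. Gm23472 and Gm23444 also share a sequence, so these values of single intervals depend on how shared reads were placed. Gm25360 followed at 74.4 CPM and Gm26316 at 41.4 CPM. Gm24497 reached 34.8 CPM, Gm25813 24.3 CPM, Gm22973 23.8 CPM and Gm25202 12.6 CPM. The order did not follow the number of substitutions: Gm26316 with 1 lay below Gm25360 with 4, and Gm24497 with 2 lay below Gm25939 with 3. The substituted copies were lowest in mature lymphoid cells, in T for 7 of 9 and in B for Gm25813 and Gm25202. Their highest population was GMP for 6 of 9, MEP for Gm25360 and Gm22973, and CLP for Gm25202.

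**Figure D1:**
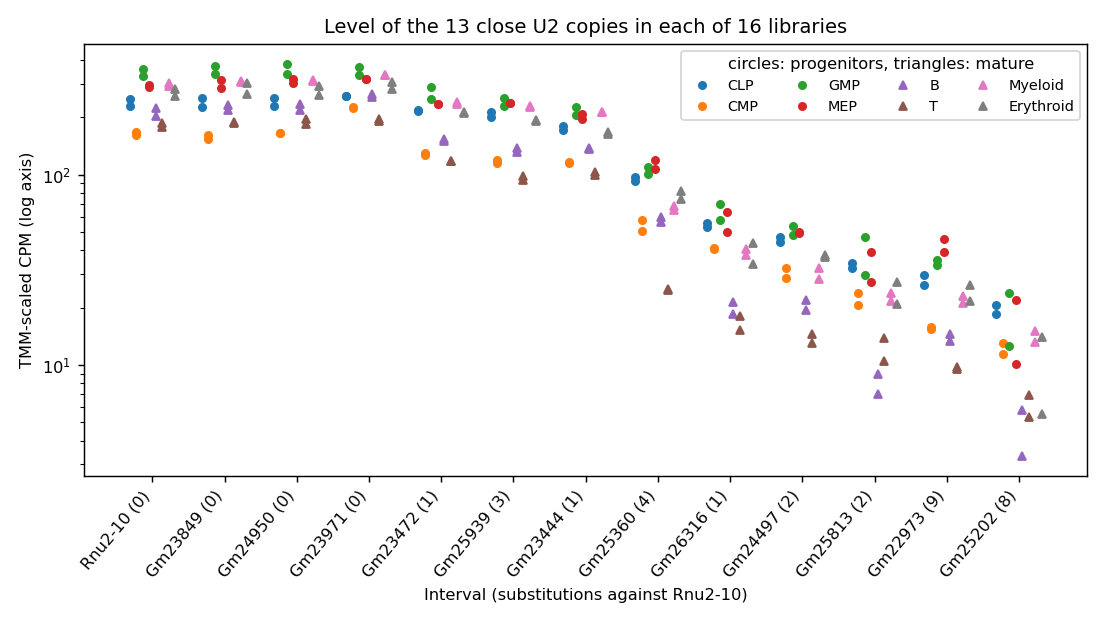
TMM CPM on a log axis (vertical) of the 13 close copies of U2 (horizontal, number of substitutions in brackets), with each of the 16 libraries as a point, circles for progenitors and triangles for mature cells, coloured by population. The 4 copies of the Rnu2-10 sequence lie between 153 and 384 CPM, and the lowest point of each substituted copy is a B or T library. In Gm25202, Erythroid library 1 (5.55 CPM) lies among the B and T libraries (3.32 to 6.97 CPM).

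The make-up of the U2 counts differed between populations, and this measure needs no scaling between libraries. It does depend on how reads that fit copies of both groups were placed, which is not known. The 4 copies of the Rnu2-10 sequence took 65.7% and 64.9% of the counts of the class in T, 63.2% and 62.1% in B, 59.1% and 58.5% in Myeloid and 60.2% and 57.4% in Erythroid. In progenitors they took 57.9% and 56.8% in GMP, 56.7% and 56.9% in CMP, 55.4% and 54.6% in MEP and 53.1% and 52.1% in CLP. T and B thus stood above every other library and CLP below every other library, with mature myeloid and erythroid libraries overlapping GMP only through Erythroid library 2. Per 100 counts of the mean Rnu2-10 copy, the 9 substituted copies together gave 358 ± 10.1 counts in CLP, 324 ± 7.39 in MEP, 301 ± 2.07 in CMP and 295 ± 9.02 in GMP (SD, n = 2). They gave 279 ± 5.06 in Myeloid, 278 ± 23.2 in Erythroid, 238 ± 7.97 in B and 211 ± 5.43 in T (SD, n = 2). These sums are descriptions without a test.

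**Figure D2:**
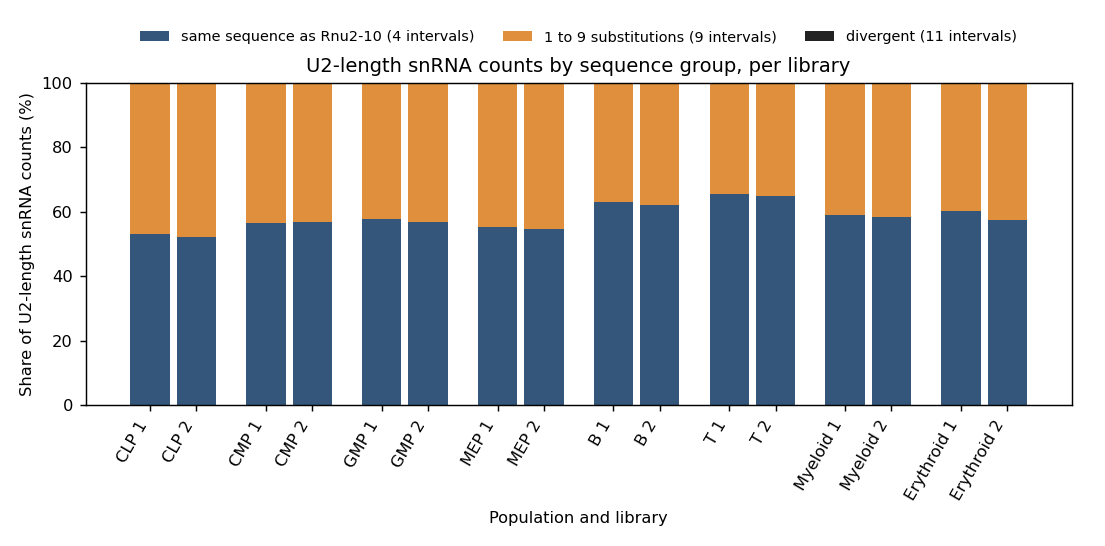
Share of the counts of the 24 U2-length intervals (vertical, percent) in each library (horizontal) held by the 4 copies of the Rnu2-10 sequence, the 9 copies with 1 to 9 substitutions and the 11 divergent intervals, which are too few to see. The share of the Rnu2-10 sequence is highest in T, at 65.7% and 64.9%, and lowest in CLP, at 53.1% and 52.1%.

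Copy by copy, the count per 100 of the mean Rnu2-10 copy also set CLP apart from B and T. Gm25360 gave 38.4 and 38.9 in CLP, 34.5 and 39.8 in MEP, 32.9 and 28.1 in CMP and 29.5 and 30.0 in GMP. In mature cells it gave 27.6 and 27.9 in Erythroid, 24.9 and 25.2 in B, 20.6 and 21.9 in Myeloid and 13.2 and 13.3 in T. Each progenitor library lay above each mature library for this copy, narrowly so for CMP library 2 (28.1) and Erythroid library 2 (27.9). The share of all intervals that did so is not given here. Gm24497 ran from 17.5 and 19.8 in CLP to 8.14 and 9.81 in B and 6.82 and 7.74 in T. Gm26316 had 22.0 and 22.4 in CLP, 23.0 and 22.7 in CMP, 8.96 and 8.24 in B and 9.47 and 8.16 in T. Gm25813 ran from 12.7 and 14.4 in CLP to 5.50 and 7.36 in T and 2.92 and 3.98 in B. For the 3 abundant copies the span was narrower, with a ratio of highest to lowest library of 1.38 for Gm23444, 1.48 for Gm23472 and 1.72 for Gm25939, against 2.81 to 6.29 for the 6 others. Both CLP libraries lay above all 4 B and T libraries in each of the 9 substituted copies, and 20.4% of the 745 intervals tested outside the Rnu2-10 sequence did so on this measure.

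**Figure D3:**
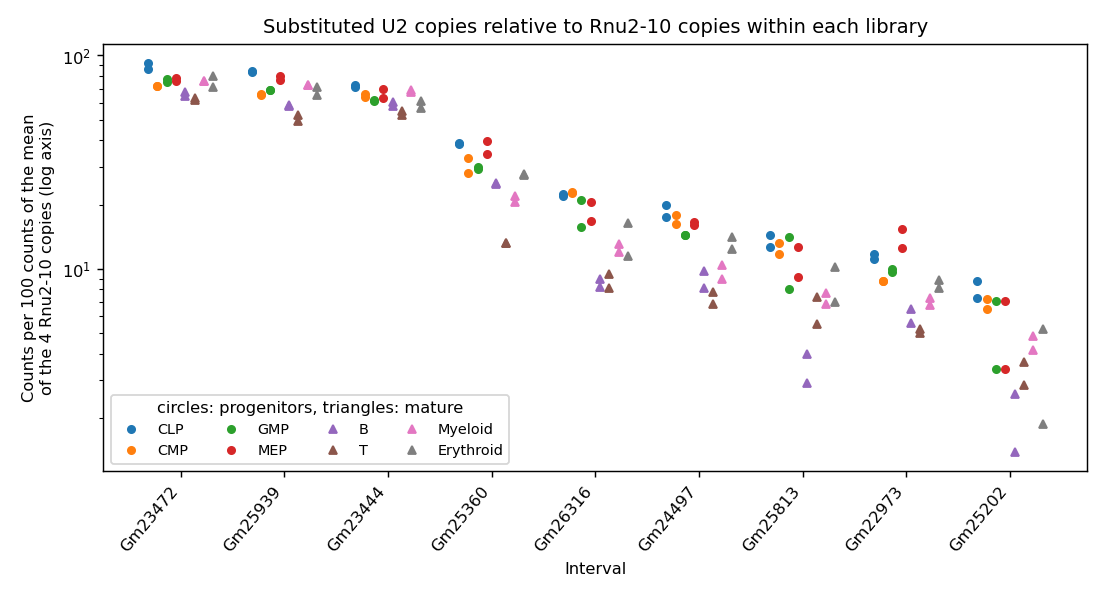
Counts per 100 counts of the mean of the 4 Rnu2-10 copies (vertical, log axis) for the 9 substituted copies (horizontal), with each library as a point, circles for progenitors and triangles for mature cells, coloured by population. For each copy the CLP points lie above the B and T points, as for Gm25360 at 38.4 and 38.9 against at most 25.2.

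Progenitors were compared with mature cells over the mean of 4 populations each. All 9 substituted copies were higher in progenitors, by a log2 difference of 0.22 to 1.05 (median 0.79), while of the 4 copies of the Rnu2-10 sequence only Gm23971 passed, at 0.10 ± 0.03 (SE). In all, 12 intervals of the class were called higher and 0 lower (11 apart from Gm22423), against 26.7% of tested intervals called higher and a median log2 difference of 0.07 over all 749. Progenitor and mature libraries overlapped in each of the 13 close copies. CMP in particular lay low, with 537 ± 4.90 CPM summed over the substituted copies against 550 ± 7.58 in B, 783 ± 8.14 in Erythroid and 875 ± 4.73 in Myeloid (SD, n = 2). The largest log2 differences among the close copies were those of Gm25202 (1.05 ± 0.24, SE), Gm25813 (1.04 ± 0.13), Gm26316 (1.00 ± 0.09) and Gm24497 (0.86 ± 0.06), with adjusted p of 0.00372, 4.84e-05, 2.39e-06 and 7.54e-07. Gm22973 (0.79 ± 0.07) and Gm25360 (0.76 ± 0.05) came next. The 3 abundant copies changed least, with 0.33 for Gm25939, 0.24 for Gm23472 and 0.22 for Gm23444. Rnu2-10 itself differed by 0.08 ± 0.04 (adjusted p = 0.113), but by 0.32 (adjusted p = 5.08e-05) when libraries were scaled by their totals, a scaling that raised the median of all intervals from 0.07 to 0.30.

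Of these 12 calls, 9 held in each of the 16 fits that left out 1 library. Gm23472 and Gm23444 lost theirs without CLP library 1 or T library 2 (adjusted p of up to 0.0719 and 0.139). Gm23971 lost its call with RLE size factors (adjusted p = 0.438) and without any library other than GMP library 2 or Erythroid library 1, and it had a log2 difference of -0.00075 without T library 2. With the 4 populations of each stage as the units in place of libraries, none of the class was called apart from Gm22423, which owed its test to its progenitor counts. With it, 7 had an unadjusted p under 0.05, and 21 of 737 intervals were called in all.

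In the lymphoid branch, CLP was compared with the mean of B and T. All 9 substituted copies were higher in CLP, and so, by edgeR with TMM, were the 4 copies of the Rnu2-10 sequence, which all lost their calls with RLE size factors (adjusted p of 0.0986 to 0.24) or DESeq2 (0.0806 to 0.246). In all 16 intervals of the class were called, or 12 under either alternative, against 25.2% of tested intervals called higher by edgeR with TMM. Both counts include Gm22423, which passed the filter through its progenitor counts, and Gm24763, whose counts in B and T were under the minimum. The calls of these intervals are descriptions only. The log2 difference was 0.57 to 1.89 (median 1.32) in the 9 substituted copies and 0.21 to 0.28 in the 4 copies of the Rnu2-10 sequence, beside a median of 0.13 over all intervals. Gm25202 measured 18.4 and 20.6 CPM in CLP, 3.32 and 5.79 CPM in B and 6.97 and 5.32 CPM in T, a log2 difference of 1.89 ± 0.40 (SE, adjusted p = 0.00259). Gm25813 measured 32.3 and 34.2 CPM in CLP, 7.0 and 8.91 CPM in B and 10.5 and 13.8 CPM in T (log2 difference 1.76 ± 0.22, adjusted p = 4.56e-05). In both copies the CLP libraries lay clear of all lymphocyte libraries, as they also did in Rnu2-10. The share over all intervals is not given for CPM. The erythroid marker Mir451 was higher in CLP as well, by a log2 difference of 2.67 ± 0.23 (SE, adjusted p = 2.94e-06). The 2 erythroid markers summed to 124 and 134 CPM in CLP, 12 and 12.7 CPM in B and 30.2 and 37.8 CPM in T, and their part in the result was not tested.

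Gm26316 measured 55.8 and 53.1 CPM in CLP, 21.5 and 18.5 CPM in B and 18.0 and 15.3 CPM in T (log2 difference 1.58 ± 0.14, adjusted p = 3.84e-06). Gm24497 differed by 1.44 ± 0.10, Gm25360 by 1.32 ± 0.09 and Gm22973 by 1.27 ± 0.12 (log2, SE). These 6 copies of low or middle level changed more than Gm25939 (0.86), Gm23472 (0.70) and Gm23444 (0.57). Rnu2-10 differed by 0.28 ± 0.07 (SE, adjusted p = 0.00787), a call lost without CLP library 1, B library 2 or T library 2 (adjusted p of up to 0.526), with RLE size factors (0.25, adjusted p = 0.0986) and with DESeq2 (0.25, adjusted p = 0.0806). The calls of the other 3 copies of its sequence were each lost without either CLP library, either B library, CMP library 1 or T library 2. Those of Gm23849 and Gm24950 were also lost without CMP library 2, MEP library 2, T library 1 or Myeloid library 1, and that of Gm24950 without Myeloid library 2. All 9 substituted copies kept their calls in those fits. Scaling by library totals raised the median of all intervals from 0.13 to 0.58, and Rnu2-10 to 0.73.

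In the granulocyte-monocyte branch, 7 intervals of the class were higher in GMP than in Myeloid, against 16.3% of tested intervals called higher. They were 5 substituted copies, the divergent Gm25475 and Gm22423 (6 apart from Gm22423), and 0 of the 4 copies of the Rnu2-10 sequence. Gm24497 measured 53.5 and 48.2 CPM in GMP against 28.3 and 32.4 CPM in Myeloid, a log2 difference of 0.74 ± 0.13 (SE, adjusted p = 0.00129). Gm25360 measured 109 and 101 CPM in GMP against 65.1 and 68.1 CPM in Myeloid (0.66 ± 0.11, adjusted p = 0.00104). For both copies the libraries of the 2 populations did not overlap. The same was true of copies that were not called, such as Rnu2-10 and Gm23472, and the share over all intervals is not given here. The other called copies were Gm25813 (0.76), Gm26316 (0.70) and Gm22973 (0.65). Rnu2-10 differed by 0.21 ± 0.08 (adjusted p = 0.0861), Gm23472 by 0.18 (adjusted p = 0.0975), Gm25939 by 0.09 and Gm23444 by 0.03. The median over all intervals was -0.01. Only Gm24497 and Gm25360 kept their calls with each library left out. Gm22973 lost its call without GMP library 1, Gm26316 without Myeloid library 1, Gm25475 without either GMP library or Myeloid library 2, Gm25813 in 7 fits and Gm22423 in 15. The count was 4 without GMP library 1, Myeloid library 1 or Myeloid library 2, and 2 when the fit held these 2 populations alone.

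In the erythroid branch, 4 substituted copies were higher in MEP than in Erythroid, against 5.47% of tested intervals called higher. Gm22973 measured 39.1 and 45.9 CPM in MEP against 26.3 and 21.6 CPM in Erythroid, a log2 difference of 0.83 ± 0.14 (SE, adjusted p = 0.00357). Gm25360 measured 108 and 119 CPM in MEP against 81.9 and 74.7 CPM in Erythroid (0.53 ± 0.11, adjusted p = 0.00787). In both the MEP libraries lay above the Erythroid libraries. This also held for copies that were not called, such as Rnu2-10 and Gm23472, and the share over all intervals is not given here. Gm25939 (0.31) and Gm23444 (0.29) were also called, with adjusted p of 0.0233 and 0.0366. Rnu2-10 differed by 0.12 ± 0.08 (adjusted p = 0.458). The count was 0 without MEP library 2, 2 without either GMP library, and 1 without either library of CLP, B, T or Erythroid, CMP library 1 or Myeloid library 1. With these 2 populations fitted alone, 0 of 653 intervals were called in the whole table by edgeR, and with RLE size factors 1 interval of the class was called.

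**Figure D4:**
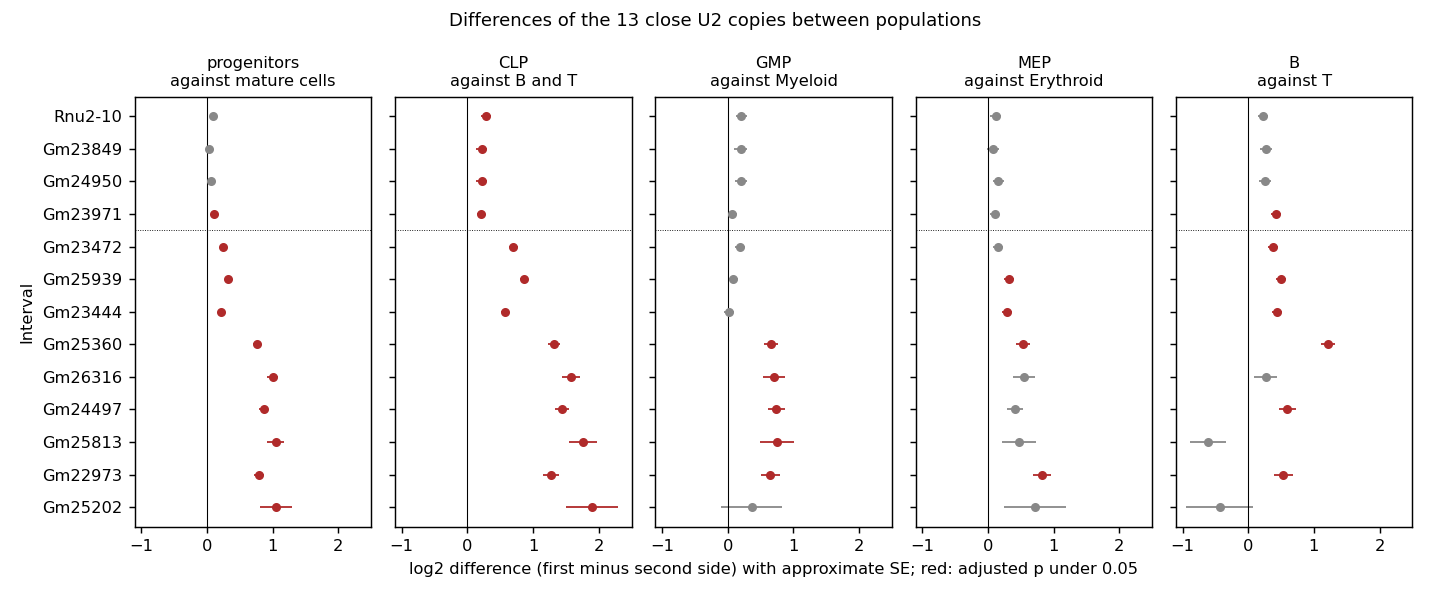
Log2 difference with its approximate SE (horizontal) for the 13 close copies (vertical) in 5 comparisons, with the 4 copies of the Rnu2-10 sequence above the dotted line and red points at an adjusted p under 0.05. The substituted copies reach 1.05 between progenitors and mature cells and 1.89 between CLP and lymphocytes, while the Rnu2-10 sequence stays within 0.10 and 0.28.

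Mature B and T cells were set apart from mature Myeloid and Erythroid cells by lower counts of the 13 close copies. In this comparison 15 intervals of the class were lower in lymphocytes, against 27.5% of tested intervals called lower. The 4 copies of the Rnu2-10 sequence were lower by a log2 difference of -0.49 to -0.53 and the 9 substituted copies by -0.67 to -1.25, beside a median of -0.32 over all intervals. Of the 4 divergent intervals tested, Gm25475 and Gm24763 were called lower, and Gm25259 (-0.43, adjusted p = 0.428) and Gm22423 were not. The call of Gm24763 is a description only, since its counts in B and T were under the minimum of the filter. Rnu2-10 fell by 0.52 ± 0.06 (log2, SE, adjusted p = 3.24e-05), Gm25939 by 0.88 ± 0.05 (adjusted p = 3.85e-07) and Gm25813 by 1.25 ± 0.19 (adjusted p = 0.000276). All the close copies kept these calls with each library left out except Gm24950, lost without T library 2 (adjusted p = 0.0615), and Gm25202, whose call was lost (adjusted p of up to 0.135) without the first library of CLP or B or the second of T, Myeloid or Erythroid. With populations as units, 0 intervals of the class or of the 729 then tested were called, and 3 of the class had an unadjusted p under 0.05. Scaling by library totals took the median of all intervals to -0.71 and Rnu2-10 to -0.91.

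B and T cells also differed from each other. In B, 7 intervals of the class were higher than in T, against 18.7% of tested intervals called higher. Gm25360 stood out with 59.6 and 56.5 CPM in B against 25.1 and 24.9 CPM in T, a log2 difference of 1.22 ± 0.11 (SE, adjusted p = 1.33e-05). Gm24497 (0.59), Gm22973 (0.54), Gm25939 (0.49), Gm23444 (0.44), Gm23971 (0.42) and Gm23472 (0.37) were called as well. The 2 copies with C78T and no change at position 109 had the opposite sign and were not called, Gm25813 at -0.61 (adjusted p = 0.112) and Gm25202 at -0.44 (adjusted p = 0.565). They were picked out after their values were seen. Gm25813 was called lower in B in 5 alternatives, among them DESeq2, a required mean of 10 CPM, and B and T fitted alone. Its difference was -0.54 without library 1 and -0.61 without library 2 of GMP, MEP and Erythroid. Rnu2-10 differed by 0.22 ± 0.08 (adjusted p = 0.0683) and Gm26316 by 0.26 (adjusted p = 0.286). Summed into 1 row, an alternative chosen after seeing the data, the 4 copies of the Rnu2-10 sequence were higher in B by 0.31 (adjusted p = 0.00784), and Rnu2-10 alone was called with library totals (0.29, adjusted p = 0.0194). Only Gm25360 and Gm24497 kept their calls with each library left out, Gm23472 and Gm22973 lost theirs with RLE size factors (adjusted p = 0.0627 and 0.0722), and the count was 2 without B library 1 and 3 without T library 2. It was 12, 11 of them higher in B, without library 1 of GMP, MEP and Erythroid, and 11, 10 of them higher, without library 2 of the same populations.

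The change in the lymphoid branch (CLP minus B and T) was compared with the mean change in the 2 other branches (GMP minus Myeloid and MEP minus Erythroid). It was larger for 9 intervals of the class, against 14.2% of tested intervals called larger and a median of 0.21 over all intervals. They were 8 of the 9 substituted copies, with log2 differences of 0.42 to 1.14, and the divergent Gm25475. Gm25813 had 1.14 ± 0.28 (SE, adjusted p = 0.0122), Gm26316 0.95 ± 0.19 (adjusted p = 0.00356) and Gm24497 0.86 ± 0.14 (adjusted p = 0.00105). Gm25202 had 1.35 ± 0.52 and did not pass (adjusted p = 0.0882). Mir451 moved the same way, at 2.17 ± 0.30 (adjusted p = 0.00041), and its part in the result was not tested. Gm23444 and Gm22973 lost their calls with RLE size factors (adjusted p = 0.0997 and 0.132). The 4 copies of the Rnu2-10 sequence had 0.03 to 0.12 and were not called, but all 4 were called, at 0.50 to 0.59, when libraries were scaled by totals, which took the median of all intervals to 0.68 and the count to 15. Without CLP library 1, 3 calls remained, those of Gm24497, Gm25813 and Gm25939, and these 3 held in every fit with 1 library left out. Gm23444 also lost its call without T library 2, Gm25475 without T library 2 or Myeloid library 1, and Gm22973 in all fits but those without CMP library 2, GMP library 1, Myeloid library 2, Erythroid library 2 or either MEP library.

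The copies differed in how well the 2 libraries of a population agreed. Gm25202, the copy on chromosome X with substitutions at its 5′ end, measured 12.6 and 23.8 CPM in GMP, 22.0 and 10.2 CPM in MEP and 5.55 and 14.0 CPM in Erythroid. The log2 ratio of library 1 to library 2 was -0.92, 1.12 and -1.34 in these populations. Gm25813 had -0.68, 0.53 and -0.39, and Gm26316 -0.27, 0.35 and -0.37, so the higher library was the same for all 3 copies. Rnu2-10 had 0.13, 0.03 and 0.13. Over tested intervals of at least 10 CPM, the median size of this ratio was 0.18 in GMP, 0.16 in MEP and 0.15 in Erythroid, against 0.06 to 0.12 in the other populations. MicroRNA markers moved with it. The 2 myeloid markers summed to 284 and 460 CPM in GMP, 347 and 169 CPM in MEP and 347 and 732 CPM in Erythroid, and the 2 lymphocyte markers to 11.8 and 22.8, 39.1 and 16.5, and 13.7 and 47.2 CPM. The 4 markers of T cells and lymphoid progenitors summed to 46.7 and 109 CPM in GMP, 93.6 and 37.6 CPM in MEP and 50.5 and 129 CPM in Erythroid. The lists of erythroid and of stem and progenitor microRNAs did likewise. All 5 lists had their higher sum in the library where Gm25202 was higher, and their part in the result was not tested. Without library 1 of these 3 populations, the count of called intervals was 15 over all populations, 12 for progenitors against mature cells, 16 for CLP, 6 for GMP, 5 for MEP, 15 for mature lymphoid cells and 10 for the branch difference described above. Without library 2 of each these counts were 16, 13, 16, 9, 6, 15 and 10.

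The 11 divergent intervals held 0.135% to 0.412% of the counts of the class. Gm25475 and Gm22423 are shown because they were called between progenitors and mature cells, with capitals for whichever of the 2 motifs is present.

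Gm25475: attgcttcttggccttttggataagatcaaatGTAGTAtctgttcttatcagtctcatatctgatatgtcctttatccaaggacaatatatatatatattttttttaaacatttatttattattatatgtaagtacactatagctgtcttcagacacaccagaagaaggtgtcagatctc

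Gm22423: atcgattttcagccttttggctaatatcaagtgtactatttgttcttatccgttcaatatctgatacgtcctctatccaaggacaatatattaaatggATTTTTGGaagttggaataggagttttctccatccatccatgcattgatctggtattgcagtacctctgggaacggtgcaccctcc

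Gm25475 (chr11:101397589-101397768, minus strand, intergenic) has 69.1% identity to Rnu2-10 and keeps the branch motif. It was highest in MEP, at 4.97 and 4.95 CPM, and GMP, at 4.97 and 4.82 CPM, and measured 4.63 and 3.17 CPM in CLP and 2.08 and 2.09 CPM in CMP. It measured 3.32 and 3.91 CPM in Erythroid, 2.90 and 1.59 CPM in Myeloid, 1.36 and 0.704 CPM in B and 0.775 and 0.575 CPM in T. The B and T libraries lay below all others, narrowly so for B library 1 (1.36 CPM) and Myeloid library 2 (1.59 CPM). The share of all intervals that did so is not given here. Its log2 difference was 1.28 ± 0.19 (SE, adjusted p = 0.000151) between progenitors and mature cells and 2.20 ± 0.31 (adjusted p = 0.00014) between CLP and lymphocytes.

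Gm22423 (chr11:96083673-96083856, minus strand, intergenic) has 86.4% identity to Rnu2-10 and keeps the Sm motif. It was listed in all 8 progenitor libraries with 4 to 26 counts, 86 in all, and in 4 of 8 mature libraries with at most 2 counts, 8 in all. Both T libraries were at 0. It passed the filter through its progenitor counts, so its call between the stages is a description, and its fitted fold change depends on the prior count and is not given. Gm24763 on chromosome X ran from 0.144 to 1.56 CPM and was lower in mature lymphoid than in other mature cells (log2 difference -1.81 ± 0.40, SE, adjusted p = 0.00378), a call lost without T library 2 (adjusted p = 0.0523). Its level in CLP was above that in lymphocytes (1.43, adjusted p = 0.0254), a call lost without either CLP library, either B library or T library 2. Gm24763 had only 2 to 8 counts in each B and T library and passed the filter through other populations. Both of its calls are therefore descriptions only. Gm25259, in an intron of Lrfn3, ran from 0.593 to 2.18 CPM with 0 calls in any comparison. The 7 untested members, Gm26361, Gm24623, Gm22122, Gm26146, Gm22958, Gm23517 and Gm26108, had at most 10 counts in any library.

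**Figure D5:**
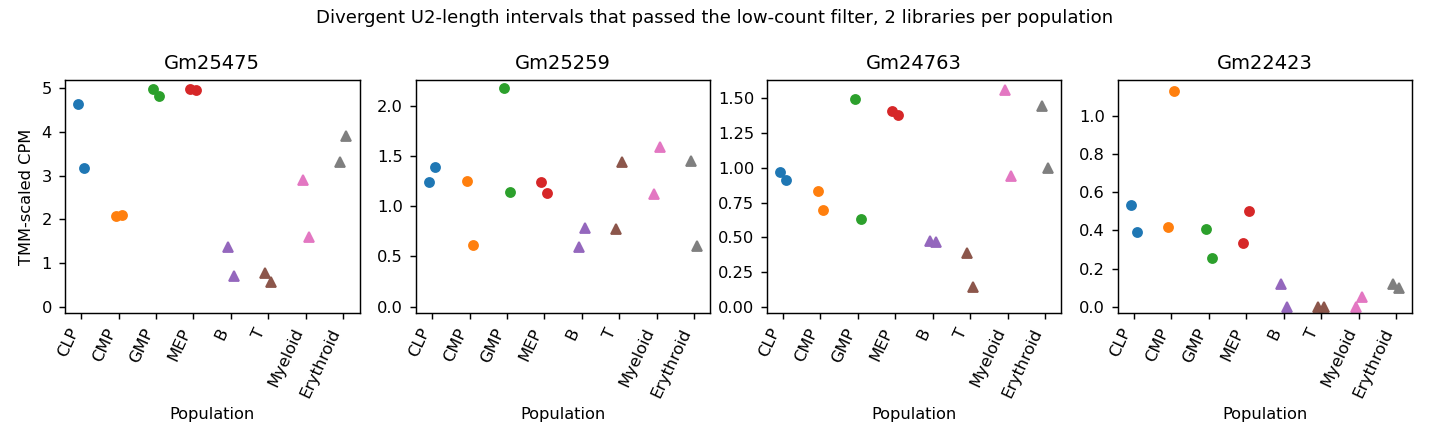
TMM CPM (vertical) of the 4 divergent intervals that passed the low-count filter in each population (horizontal), with 2 libraries as points, circles for progenitors and triangles for mature cells. Gm25475 lies at 0.575 to 1.36 CPM in B and T against 1.59 CPM or more elsewhere, and Gm22423 is at 0 in both T libraries.

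Other genes with Rnu names were read from a list of 13, of which 10 were listed and tested. Not all of them act in splicing. Between progenitors and mature cells, 5 were higher and 0 lower, and between CLP and lymphocytes 4 were higher and 0 lower. The 5 included Rnu73b (log2 difference 0.28), and the 4 were Rnu1b1, Rnu11, Rnu73b (0.52) and Rnu7. In mature lymphocytes 9 were lower than in other mature cells. Rnu1b1, a U1 gene that binds the 5′ splice site, was higher in progenitors by a log2 difference of 0.78 ± 0.08 and in CLP by 1.49 ± 0.13 (SE, adjusted p = 1.04e-05 and 3.84e-06). The more abundant U1 genes did not pass in these comparisons. Rnu1a1 differed by -0.01 in progenitors (adjusted p = 0.917) and 0.26 in CLP (adjusted p = 0.0686), and Rnu1b2 by -0.14 (adjusted p = 0.0636) and 0.13 (adjusted p = 0.308). Both were lower in GMP than in Myeloid, by -0.46 and -0.75 (adjusted p = 0.0164 and 0.000746). Rnu5g, a U5 gene whose RNA aligns the exons, was higher in progenitors by 0.28 ± 0.04 (adjusted p = 0.000238) and did not pass in CLP (0.19, adjusted p = 0.0596). In B it was higher than in T by 1.27 ± 0.09 (adjusted p = 2.88e-06). Rnu7, which acts in histone pre-mRNA processing and not in splicing, differed by -0.06 between the stages (adjusted p = 0.283) and was higher in CLP by 0.35 (adjusted p = 0.00173). Outside the U2-length class, 101 snRNA intervals were tested, of which 35 were higher and 1 lower in progenitors (median log2 difference 0.52) and 47 higher and 0 lower in CLP (median 1.35). In mature lymphocytes 63 of them were lower and 0 higher than in other mature cells (median -1.06), and in the branch difference 34 were larger and 0 smaller (median 1.24). Of 7 guide RNAs that direct U2 modification in Cajal bodies, only Scarna9 was listed. It was lower in progenitors by a log2 difference of -0.48 ± 0.11 and in CLP by -0.57 ± 0.20 (SE, adjusted p = 0.00462 and 0.0389).

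Across the 8 population means, the intervals outside the class whose TMM CPM was most like Rnu2-10, among 307 of at least 10 CPM, were the snoRNAs Gm22455 (Pearson r = 0.90), Snord42b (0.89), Gm22680 (0.85), Gm26457 (0.82) and Gm25878 (0.81). For Gm25202 they were Mir17 (0.91), the snRNA Gm22042 (0.89), the snoRNAs Snora26 (0.87) and Snora9 (0.86), and the mitochondrial tRNA mt-Ts2 (0.85). The 2 lists share no interval. These are descriptions over 8 points that come from the same libraries.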

How the data were processed

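The deposited files give, per the values, whole-number read counts per small RNA interval, 1 file per library, with no normalization by the authors. Per the submitters' processing notes, the tools were Trimmomatic 0.38 and Bowtie2 2.3.4.1 and the genome GRCm38; the counting program, strand setting and treatment of reads with several matches are not given in the sources used here. Per the labels' protocols, total RNA was extracted with Trizol, a small RNA kit was used, and amplified products were cut from a gel at snoRNA length plus adaptors, and how fully RNA of U2 length was recovered is not known. Intervals that a file does not list were counted as 0.

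Coordinates were matched to GENCODE M21 (1884 of 1885 intervals). Copies were aligned to Rnu2-10 by global alignment. In R 4.3.3, edgeR 4.0.16 filtered low counts by population at a minimum count of 10 (749 intervals left), scaled libraries by TMM and fitted 1 mean per population to all 16 libraries, leaving 8 residual degrees of freedom. Quasi-likelihood tests were adjusted by Benjamini-Hochberg over all 749 intervals at a threshold of 0.05. The SE of a log2 difference was taken as its size over the square root of F and is approximate. The fit was tried on simulated counts, for progenitors against mature cells only and with the same spread in all libraries. The other comparisons and unequal spread were not simulated. Named genes were Rnu2-10, members of at least 10 CPM and the other tested members. The members and lists were chosen with earlier results of these data known. No pair of libraries matched within sampling noise (chi-square per degree of freedom of 3.45 or more). This value was 130 in GMP, 113 in Erythroid and 98.6 in MEP, against 3.45 to 37.1 in the other populations. All populations shared the estimate of spread of an interval, so the p-values do not take this difference into account. Alternatives were other scalings, filters and tools (DESeq2 1.42.0), halved counts, a replicate block, the compared populations alone, populations as units and leaving out libraries. Summing copies of the same sequence and leaving out library 2 of GMP, MEP and Erythroid were added after seeing the data.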

Additional observations from a re-analysis of the deposited data

Results flagged for a closer look

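The change from CLP to B and T differed from the mean change in the granulocyte-monocyte and erythroid branches for 9 intervals by the edgeR test of that difference. The log2 differences of differences were 1.40 for Gm25475, 1.14 for Gm25813, 0.953 for Gm26316, 0.857 for Gm24497, 0.723 for Gm25360, 0.661 for Gm25939, 0.536 for Gm23472, 0.535 for Gm22973 and 0.418 for Gm23444. The adjusted p ran from 0.000221 for Gm25939 to 0.028 for Gm22973. All 9 were positive, so the lymphoid side carried the larger drop in each. By the same test 14.2% of all 749 intervals were called larger, and the median over them was 0.21. Among 101 snRNA intervals outside the class, 34 were called larger and 0 smaller (median 1.24), so the difference is not particular to the U2-length class. Without CLP library 1 the calls of Gm24497, Gm25813 and Gm25939 remained.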

How the results depend on the processing

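Member calls kept 1 direction per comparison in the alternatives run, except that B against T had 1 call in the opposite direction in 5 of them, DESeq2 included. DESeq2, counts halved as read pairs, summed same-sequence copies and the replicate block moved no count by over 1.5 times. With 1 library left out, counts ran from 14 to 16 for the 8 populations, 9 to 13 for progenitors against mature cells, 11 to 16 for CLP against B and T, 4 to 7 for GMP against Myeloid, 0 to 3 for MEP against Erythroid, 2 to 10 for B against T, 12 to 15 for mature lymphoid against other mature cells and 3 to 10 for the branch difference. Populations as units gave 1 for progenitors against mature cells and 0 for mature lymphoid cells. Requiring a mean of 10 CPM gave 10 for CLP against B and T, where only the 13 close copies were tested and Gm23849, Gm24950 and Gm23971 lost their calls (adjusted p of 0.1 to 0.169). Without a filter the counts were 4 for GMP against Myeloid, 0 for MEP against Erythroid and 2 for B against T. Fitting only the compared populations gave 2 for GMP against Myeloid and 0 for MEP against Erythroid, and RLE size factors gave 1 for the latter. B against T gave 12 and 11 without library 1 and library 2 of GMP, MEP and Erythroid. Library totals gave 15 for the branch difference. The progenitor difference of Gm23971 ran from -0.00075, without T library 2, to 0.15 with 1 library left out. The cause of these moves was not tested, apart from the smaller number of samples where stated.

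Replicate numbers showed no common pairing of the libraries: same-numbered deviations correlated at -0.64 to 0.49 over 28 pairs of populations, with 8 over 0.1. This cannot tell whether some populations shared mice or batches, under the same or other numbers. With a replicate block the counts were 16, 13, 16, 7, 4, 9, 15 and 9 for the 8 populations together, progenitors, CLP, GMP, MEP, B against T, mature lymphoid cells and the branch difference. Depth limited the 7 untested intervals, for which differences were not detectable.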
